A study of Homo sapiens with 8 samples.

Results

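Enzymes that place or remove methyl and acetyl groups on histones were followed in 2 human multiple myeloma cell lines, NCI-H929 and MM1.S, both established cell lines. Members were the rows of the expression table whose gene symbol starts with KMT, KDM, SETD, EHMT, SUV39H or HDAC, or with KAT followed by a digit, plus EZH1, EZH2, DOT1L, EP300, CREBBP, NSD1 and NSD3. Antisense and divergent transcripts (KDM4A-AS1, KDM7A-DT and KMT2E-AS1) and NSD2 were left out. This gave 60 of 14884 genes with a named row. DOT1L, KMT2A, KMT2E, SETD1B, SETDB1, SETDB2, SETD4 and KAT6A are not among them and were not analysed here, so the classes below are not whole families. Of the 60 members, 59 passed the filter on dim rows and were tested among 12734 genes. They are 17 methyl writers, 18 methyl erasers, 9 acetyl writers, 11 acetyl erasers and 4 other proteins with a SET domain. KDM4E did not pass, with log2 levels from 2.35 to 2.98. KDM5D, which is Y-linked, is in the counts only.

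The 8 arrays fall into 4 groups of 2: NCI-H929 with a short hairpin against SIRT6 (shSIRT6), NCI-H929 with a scramble hairpin, MM1.S with shSIRT6 and MM1.S with scramble. SIRT6 is an NAD-dependent deacetylase of chromatin, and every group carries a hairpin construct. The labels do not say how many hairpins were used, nor whether the duplicates of a condition were grown apart. The p-values therefore reflect only how far duplicate arrays scatter, and that scatter may be technical.

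Lysine methyltransferases, the methyl writers, use S-adenosylmethionine and mostly act through a SET domain. The mark's place decides its usual company: methylated H3K4 and H3K36 lie at active genes, while methylated H3K9 and H3K27 lie at silent ones. Demethylases of the KDM families remove these marks with flavin or with iron and 2-oxoglutarate. Acetyltransferases such as EP300 and CREBBP open chromatin and histone deacetylases (HDACs) reverse this. In myeloma the field knows these enzymes from the translocated writer NSD2, from losses of the H3K27 eraser KDM6A, and from HDAC inhibitors used as drugs.

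The values are log2 levels after RMA, so a difference of 1 is a doubling, and a level of one gene is not compared with that of another. A gene counts as called where limma, with 4 group means fitted to all 8 arrays, gave an adjusted p (Benjamini-Hochberg, 12734 genes) under 0.05. Array medians ran from 3.94 to 3.97 with shSIRT6 and from 3.88 to 3.92 with scramble, so they split by construct. Arrays of one group correlated at 0.989 to 0.992. SIRT6 itself did not pass the test in either line. It had 6.25 and 6.31 with shSIRT6 against 6.53 and 6.97 with scramble in NCI-H929, and 5.60 and 5.78 against 6.09 and 5.88 in MM1.S (adjusted p = 0.276 and 0.355). The arrays do not overlap, but the size of the knock-down is uncertain. Plasma cell markers fit the labelled cell type: of 9 listed, 6 had a named row, from the 95.2 (SDC1) to the 99.8 percentile of all rows (IRF4). Markers of other cell types lay lower, from 5.42 (DCN, stromal) to 66.5 (NKG7, T and NK cell). Of these, LYZ, DCN and LUM were under the filter. The B cell marker PAX5, the T and NK cell markers CD2, NKG7 and GNLY, and the myeloid markers CD14 and CSF1R passed it.

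Many of these enzymes differed between the 2 lines. With shSIRT6, 30 members were called, 11 higher and 19 lower in NCI-H929 than in MM1.S, where 37.9% of all genes tested were called. With scramble, 28 were called, 12 higher and 16 lower, beside 38.3% of all genes. The 2 comparisons share no array. In both, 9 members were higher in NCI-H929 and 12 lower, beside 14.5% and 14.3% of all genes. KDM4A was called in both but in opposite directions, as were 0.196% of all genes. Across the 59 members the differences with shSIRT6 and with scramble correlated at r = 0.901, and across all genes at r = 0.904, with genes not independent of each other.

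By class, the counts are read against 2339 genes higher and 2484 lower in NCI-H929 with shSIRT6, and 2543 higher and 2332 lower with scramble, of 12734 tested. Of 26 writers of both marks, 4 were higher and 12 lower in NCI-H929 with shSIRT6, and 5 higher and 8 lower with scramble. Of 29 erasers, 6 were higher and 6 lower with shSIRT6, and 5 higher and 6 lower with scramble. The median log2 difference of the writers was −0.28 with shSIRT6 and −0.13 with scramble, that of the erasers 0.055 and 0.065, and that of all genes 0.00 and 0.03. By class, the acetyl writers had medians of −0.47 and −0.245, the methyl writers −0.27 and −0.085, the acetyl erasers −0.03 and 0.065, and the methyl erasers 0.085 and 0.03. These medians are descriptions with no test between the classes. In RNA from whole cultures, fewer expressing cells and less RNA per cell cannot be told apart.

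**Figure D1:**
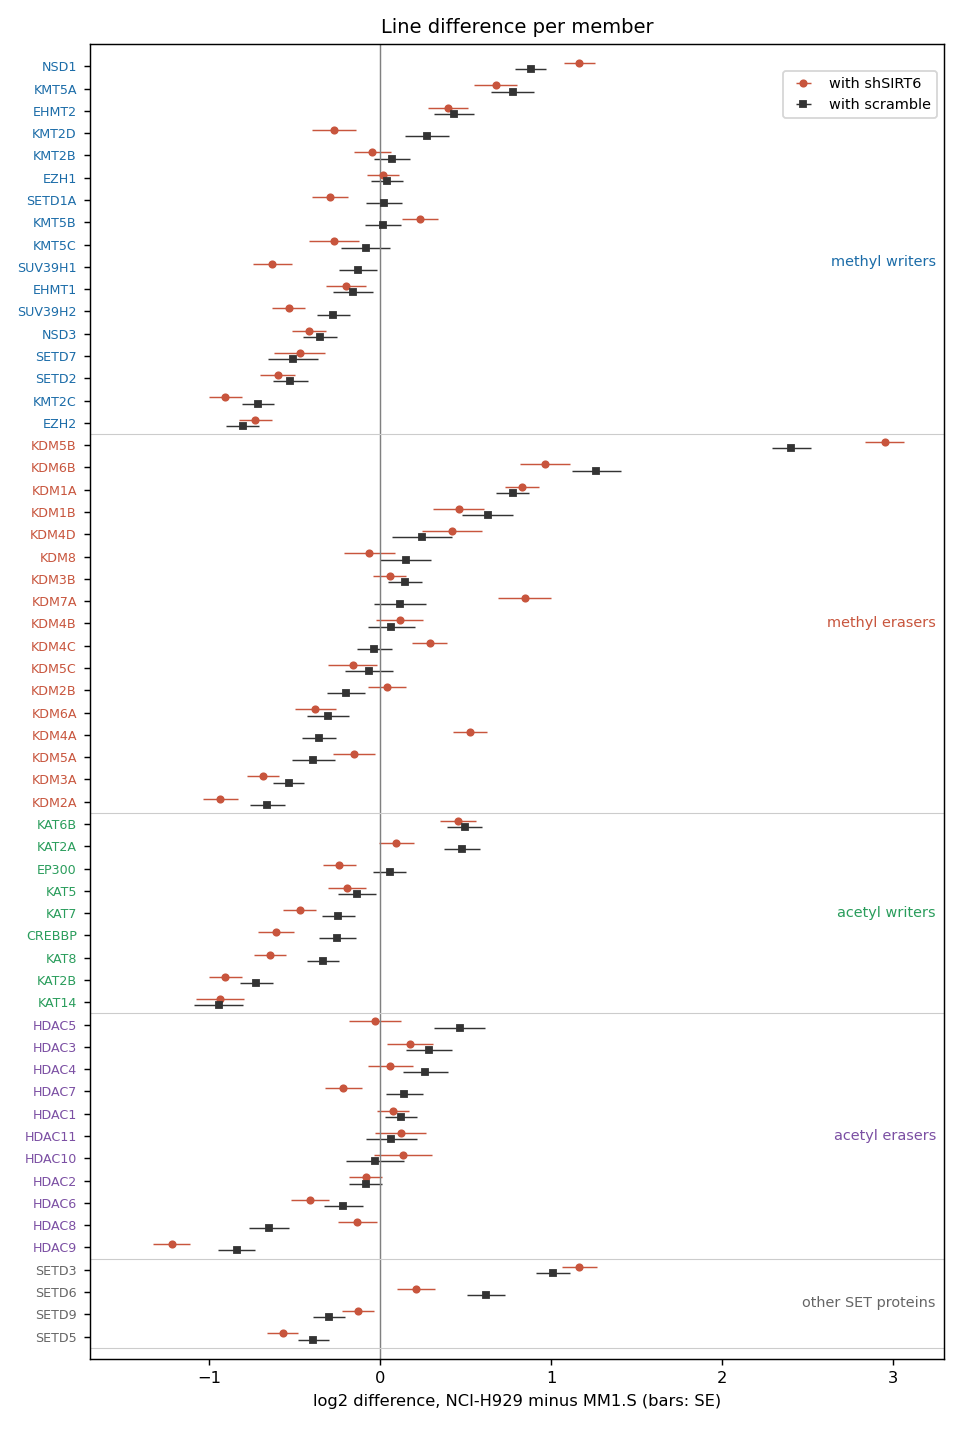
Log2 difference of NCI-H929 minus MM1.S for 58 members, grouped by class and sorted by the difference with scramble. Circles are arrays with shSIRT6 and squares arrays with scramble (2 arrays per line each), and bars are standard errors. KDM5B stands far to the right at 2.95 and 2.405, and KDM4A changes sides.

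Among the members with printed values, the largest line difference in both comparisons was that of KDM5B, an eraser of di- and trimethylated H3K4. NCI-H929 had log2 levels of 7.97 and 8.09 with shSIRT6 and of 7.93 and 7.97 with scramble. MM1.S had 5.19 and 4.97 with shSIRT6 and 5.61 and 5.48 with scramble. All NCI-H929 arrays lie far above all MM1.S arrays. The difference was 2.95 ± 0.11 (SE) with shSIRT6 and 2.405 ± 0.11 with scramble (limma, adjusted p = 2.86e-06 and 6.84e-06). Its relative KDM5A was lower in NCI-H929 with scramble (−0.39 ± 0.12, adjusted p = 0.0395), a call that leaving out any of the 4 scramble arrays ended (−0.47 to −0.31). For KDM5A with shSIRT6 the value was −0.155 and for KDM5C −0.16 and −0.065, none of them called.

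KDM6B, which removes H3K27 methylation and responds to inflammatory signals in other blood cells, had the second largest difference with scramble. It had 6.42 and 6.66 with shSIRT6 and 6.65 and 6.92 with scramble in NCI-H929. In MM1.S it had 5.47 and 5.68 with shSIRT6 and 5.44 and 5.60 with scramble. The lines do not overlap, and the differences were 0.965 ± 0.15 and 1.265 ± 0.15 (adjusted p = 0.00148 and 0.000409). KDM6A, the X-linked enzyme for the same mark, went the other way. It had 7.43 and 7.36 with shSIRT6 and 7.35 and 7.66 with scramble in NCI-H929, and 7.77 and 7.78, and 7.83 and 7.79, in MM1.S. The difference of KDM6A was −0.38 ± 0.12 with shSIRT6 (adjusted p = 0.0409), lost without any 1 of 6 arrays (−0.415 to −0.345), and −0.305 with scramble, not called (adjusted p = 0.0855).

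The start-site regions of KDM5B and KDM6B, the demethylases with the largest printed line differences, and of KDM4A, whose construct difference is described further on, are shown because they are the regulatory sequence next to these genes. Each is the 300 bases from 250 before to 50 after the gene's start in RefSeq, build GRCh38.p14, read 5′ to 3′ on the gene's strand. Capitals mark the GC box GGGCGG and the CCAAT box CCAAT, on either strand.
KDM5B (chr1:202808372-202808671, minus strand): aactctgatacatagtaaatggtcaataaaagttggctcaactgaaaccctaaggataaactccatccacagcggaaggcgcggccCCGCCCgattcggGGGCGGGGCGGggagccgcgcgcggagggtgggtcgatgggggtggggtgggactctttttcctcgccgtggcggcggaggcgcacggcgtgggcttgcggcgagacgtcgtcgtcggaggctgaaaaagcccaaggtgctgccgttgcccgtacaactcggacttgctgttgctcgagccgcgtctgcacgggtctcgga
KDM6B (chr17:7833967-7834266, plus strand): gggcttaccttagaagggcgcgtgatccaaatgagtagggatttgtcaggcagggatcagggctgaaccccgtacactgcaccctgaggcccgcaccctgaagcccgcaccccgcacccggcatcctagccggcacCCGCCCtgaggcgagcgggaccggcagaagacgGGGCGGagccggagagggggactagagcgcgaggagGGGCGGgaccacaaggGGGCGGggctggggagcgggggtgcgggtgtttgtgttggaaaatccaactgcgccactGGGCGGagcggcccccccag
KDM4A (chr1:43649899-43650198, plus strand): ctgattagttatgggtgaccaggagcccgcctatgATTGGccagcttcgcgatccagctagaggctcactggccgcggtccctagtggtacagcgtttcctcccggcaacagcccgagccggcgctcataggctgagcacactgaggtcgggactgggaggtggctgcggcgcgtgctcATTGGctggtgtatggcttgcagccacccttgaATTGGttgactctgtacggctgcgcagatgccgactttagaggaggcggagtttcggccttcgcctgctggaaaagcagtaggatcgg
KDM5B holds 3 GC boxes, of which a pair overlaps by a base, and KDM6B holds 5, while neither holds a CCAAT box (0). KDM4A holds 3 CCAAT boxes and 0 GC boxes. Of the promoters of tested genes in this reference, 64.2% of 9530 hold a GC box and 36.1% a CCAAT box, with 4% holding 3 or more CCAAT boxes. For the 56 members found there the shares were 67.9%, 32.1% and 7.14%. Of the promoters of tested genes, 25.1% hold 3 or more GC boxes. None of the 3 windows holds the E-box CACGTG or the cyclic AMP element TGACGTCA (0). Those letters were in 14.3% and 1.79% of the members' windows and in 9.55% and 2.82% of those of all tested genes. The members' windows had a median GC content of 66.7%, those of all tested genes 64%.

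Other erasers of methyl marks split between the lines. KDM1A, the flavin enzyme LSD1 that acts on H3K4, had 8.90 and 8.94 with shSIRT6 and 9.0 and 8.96 with scramble in NCI-H929. In MM1.S it had 8.15 and 8.03, and 8.15 and 8.26. It was thus higher in NCI-H929 on every array, by 0.83 ± 0.098 and 0.775 ± 0.098 (limma, adjusted p = 0.000454 and 0.00065). Its relative KDM1B was higher too, by 0.46 ± 0.15 and 0.63 ± 0.15. Leaving out any of several single arrays ended the calls of KDM1B (0.32 to 0.46 with shSIRT6, 0.495 to 0.635 with scramble). KDM2A, an H3K36 eraser that binds unmethylated CpG islands, had 7.75 and 7.77, and 7.94 and 7.87, in NCI-H929. In MM1.S it had 8.79 and 8.60 with shSIRT6 and 8.58 and 8.55 with scramble. Here NCI-H929 was lower, by −0.935 ± 0.10 and −0.66 ± 0.10 on the log2 scale. KDM3A, an H3K9 eraser induced by low oxygen, had 6.63 and 6.63, and 6.93 and 6.94, in NCI-H929, against 7.37 and 7.26, and 7.49 and 7.45, in MM1.S. KDM3A was lower as well, at −0.685 ± 0.092 and −0.535 ± 0.092. Adjusted p for KDM2A and KDM3A ran from 0.000317 to 0.00282.

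KDM7A, an eraser of H3K9 and H3K27 methylation, was called between the lines only with shSIRT6, at 0.845 ± 0.15 against 0.115 with scramble (adjusted p = 0.00366 and 0.611). The change of that difference was itself not called (0.73 ± 0.22, limma, adjusted p = 0.234). No member was called for such a change, also where only 1 of the 2 line differences was called. KDM2B, KDM3B, KDM4B, KDM4C, KDM4D and KDM8 were called in neither comparison, with values from −0.20 (KDM2B, scramble) to 0.42 (KDM4D, shSIRT6).

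**Figure D2:**
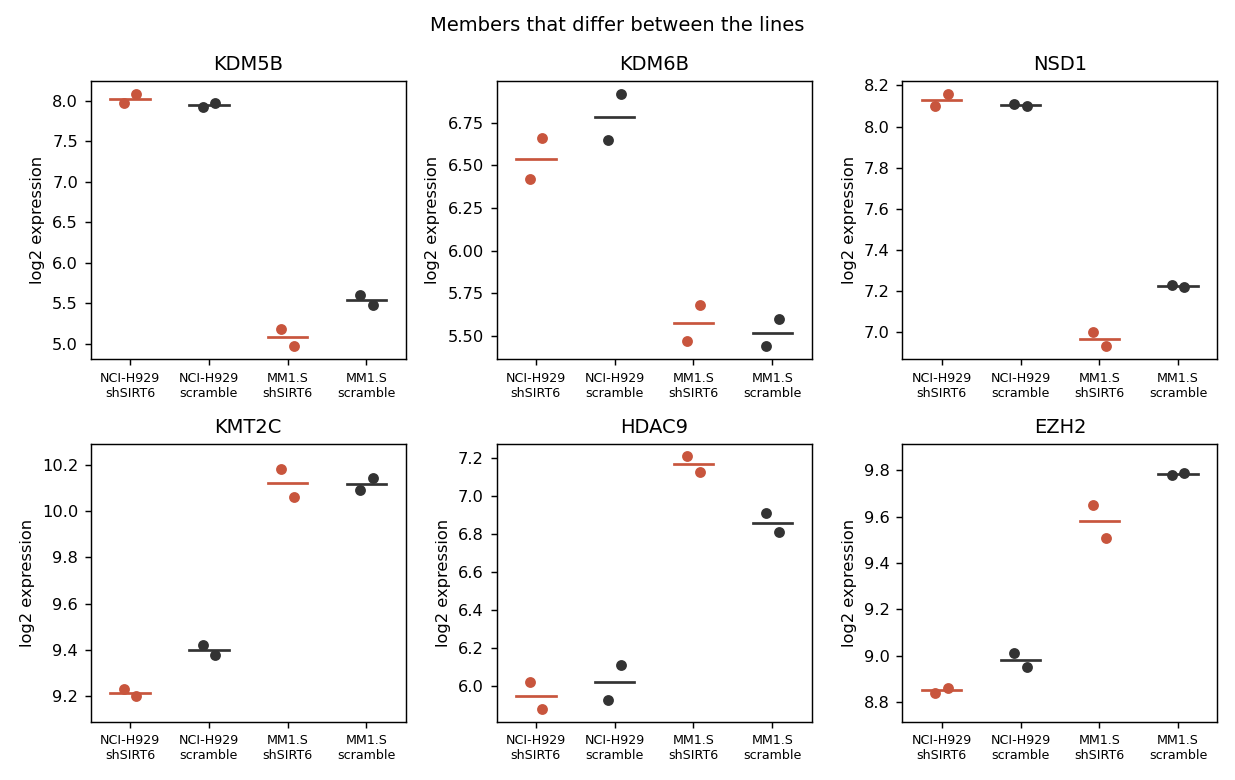
Log2 levels of 6 members on each of the 8 arrays. Points are arrays, lines are means of 2 arrays, red is shSIRT6 and black is scramble. KDM5B, KDM6B and NSD1 lie higher and KMT2C, HDAC9 and EZH2 lower on all NCI-H929 arrays than on all MM1.S arrays, and the vertical axes differ between panels.

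Among the methyl writers, the 3 H3K36 enzymes all differed between the lines, in both directions. NSD1, which makes dimethylated H3K36, had 8.10 and 8.16 with shSIRT6 and 8.11 and 8.10 with scramble in NCI-H929. In MM1.S it had 7.0 and 6.93, and 7.23 and 7.22. NSD1 was higher in NCI-H929 by 1.165 ± 0.090 and 0.88 ± 0.090 (limma, adjusted p = 6.75e-05 and 0.000244). SETD2, the enzyme of trimethylated H3K36, had 6.79 and 6.62, and 6.69 and 6.76, in NCI-H929. In MM1.S SETD2 had 7.34 and 7.27 with shSIRT6 and 7.28 and 7.22 with scramble. It was lower in NCI-H929 by −0.60 ± 0.10 and −0.525 ± 0.10 (adjusted p = 0.00271 and 0.00501). NSD3 had 8.13 and 8.06, and 8.33 and 8.20, in NCI-H929, against 8.51 and 8.51, and 8.56 and 8.67, in MM1.S. NSD3 was lower at −0.415 ± 0.099 and −0.35 ± 0.099, but the mean of its 2 rows gave −0.23 and −0.215, not called, and single arrays ended its calls too (−0.415 to −0.38 with shSIRT6, −0.415 to −0.285 with scramble). NSD2, the relative of NSD1 and NSD3 that is translocated in NCI-H929, was higher there by 1.115 ± 0.093 and 1.375 ± 0.093, so that NSD1 and NSD2 were both higher in the line with the NSD2 translocation.

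EZH2, the H3K27 writer of Polycomb repressive complex 2, was lower in NCI-H929. It had 8.84 and 8.86 with shSIRT6 and 9.01 and 8.95 with scramble, against 9.65 and 9.51, and 9.78 and 9.79, in MM1.S. The groups do not overlap, and the differences of EZH2 were −0.73 ± 0.096 and −0.805 ± 0.096 (limma, adjusted p = 0.000766 and 0.000491). Its paralogue EZH1 lay at 8.74 to 8.83 on all 8 arrays, with differences of 0.015 ± 0.093 and 0.04 ± 0.093.

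The 5 H3K4 writers tested were lower or not called. KMT2C, an enhancer enzyme, had 9.23 and 9.20 with shSIRT6 and 9.42 and 9.38 with scramble in NCI-H929. In MM1.S it had 10.18 and 10.06, and 10.09 and 10.14. The difference of KMT2C was −0.905 ± 0.094 and −0.715 ± 0.094 (limma, adjusted p = 0.000252 and 0.000795), and KMT2C shares sequence with partial copies elsewhere in the genome; whether its probes read them was not tested. SETD7 was lower at −0.47 ± 0.15 and −0.51 ± 0.15. Its call with scramble ended without any of the 4 scramble arrays (−0.585 to −0.435), and that with shSIRT6 without any of 7 arrays (−0.505 to −0.255). KMT2B, KMT2D and SETD1A were not called. KMT2D, an enhancer enzyme like KMT2C, had 6.96 and 6.96 with shSIRT6 and 7.28 and 7.22 with scramble in NCI-H929, against 7.33 and 7.13, and 7.12 and 6.83, in MM1.S. The differences of KMT2D were −0.27 ± 0.13 and 0.275 ± 0.13 (adjusted p = 0.141 and 0.135).

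Writers of H3K9 and H4K20 methylation differed one by one. EHMT2 (G9a), which dimethylates H3K9, had 7.20 and 7.10 with shSIRT6 and 7.28 and 7.01 with scramble in NCI-H929, against 6.78 and 6.73, and 6.74 and 6.69, in MM1.S. EHMT2 was higher in NCI-H929 by 0.395 ± 0.12 with shSIRT6 and 0.43 ± 0.12 with scramble (limma, adjusted p = 0.0309 and 0.0215). Single arrays ended both calls of EHMT2, with 0.345 to 0.445 and 0.295 to 0.455 left. EHMT1, its partner in a heterodimer, had −0.20 and −0.16, not called. SUV39H1 and SUV39H2, the heterochromatin enzymes, were lower in NCI-H929 with shSIRT6, at −0.63 ± 0.11 and −0.535 ± 0.097 (adjusted p = 0.00343 and 0.00365). With scramble they had −0.13 and −0.275 and were not called. The changes of these differences between the constructs were not called either (adjusted p = 0.254 and 0.444). The second, dimmer row of SUV39H1 was lower in NCI-H929 with both constructs and was not tested on its own. It had 3.88 and 3.93 against 4.22 and 4.24 with shSIRT6, and 4.26 and 4.13 against 4.45 and 4.52 with scramble. KMT5A, which monomethylates H4K20, had 6.80 and 6.80, and 6.92 and 6.77, in NCI-H929, against 6.28 and 5.97, and 6.11 and 6.03, in MM1.S. KMT5A was higher by 0.675 ± 0.13 and 0.775 ± 0.13 (adjusted p = 0.00426 and 0.00217), while KMT5B and KMT5C, which extend that mark, were not called.

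Of the 9 acetyl writers tested, 1 was higher and 5 lower in NCI-H929 with shSIRT6, and 2 were higher and 3 lower with scramble. Of all genes, 37.9% and 38.3% were called in either direction. KAT2B (PCAF), an H3K9 acetyltransferase, had 8.05 and 7.92 with shSIRT6 and 8.44 and 8.37 with scramble. In MM1.S it had 8.90 and 8.88, and 9.14 and 9.12, so the lines do not overlap. The difference of KAT2B was −0.905 ± 0.095 and −0.725 ± 0.095 (limma, adjusted p = 0.000266 and 0.000788). KAT14, a subunit of the ATAC complex, had 4.63 and 4.73, and 4.64 and 4.53, in NCI-H929, against 5.47 and 5.76, and 5.67 and 5.39, in MM1.S. KAT14 was lower by −0.935 ± 0.14 and −0.945 ± 0.14. KAT8 (MOF), the H4K16 enzyme, was lower by −0.645 ± 0.092 and −0.335 ± 0.092, and its call with scramble ended without any of the 4 scramble arrays (−0.375 to −0.295). CREBBP, a broad coactivator, had 8.92 and 8.75 with shSIRT6 and 9.02 and 9.01 with scramble in NCI-H929, against 9.36 and 9.53, and 9.26 and 9.27, in MM1.S. KAT7 and CREBBP were called lower with shSIRT6 (−0.47 ± 0.096 and −0.61 ± 0.11) and not with scramble (−0.245 and −0.25).

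KAT6B was the acetyl writer higher in NCI-H929 in both comparisons, by 0.455 ± 0.10 and 0.495 ± 0.10. With shSIRT6 its call ended without shSIRT6 replicate 2 of MM1.S (0.375) or replicate 1 of NCI-H929 (0.40). KAT2A (GCN5), the paralogue of KAT2B, had 7.87 and 8.04 with shSIRT6 and 7.97 and 7.97 with scramble in NCI-H929, against 7.90 and 7.82, and 7.43 and 7.55, in MM1.S. KAT2A was called higher with scramble only (0.48 ± 0.10, adjusted p = 0.00845). It had 0.095 with shSIRT6, and its call ended without scramble replicate 1 of MM1.S (0.42). EP300 had 8.80 and 8.76, and 8.89 and 8.92, in NCI-H929, against 9.09 and 8.95, and 8.82 and 8.88, in MM1.S. KAT5 (TIP60) had 6.28 and 6.53, and 6.34 and 6.37, against 6.59 and 6.61, and 6.44 and 6.54. The differences of EP300 were −0.24 ± 0.096 and 0.055 ± 0.096, and those of KAT5 −0.195 and −0.135, none of them called.

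Of 11 HDACs, 2 were called between the lines with shSIRT6 and 3 with scramble, beside 37.9% and 38.3% of all genes. Among the class I enzymes, HDAC1, HDAC2 and HDAC3, the catalytic cores of corepressor complexes, were not called in either comparison. HDAC8, of the same class, was called with scramble, as given below. HDAC1 had 8.55 and 8.49, and 8.62 and 8.59, in NCI-H929, against 8.49 and 8.40, and 8.53 and 8.44, in MM1.S. HDAC2 had 6.57 and 6.48, and 6.61 and 6.54, against 6.62 and 6.60, and 6.71 and 6.61. The ranges of both genes lie close together or overlap, with differences of 0.075 ± 0.095 and 0.12 ± 0.095 for HDAC1 and −0.085 ± 0.096 in both comparisons for HDAC2. HDAC3 had 7.79 and 7.50, and 7.83 and 7.84, in NCI-H929, against 7.60 and 7.34, and 7.55 and 7.55, in MM1.S, with differences of 0.175 ± 0.13 and 0.285 ± 0.13.

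HDAC9, a class IIa enzyme that recruits corepressors, was called in both comparisons. It had 6.02 and 5.88 with shSIRT6 and 5.93 and 6.11 with scramble in NCI-H929, against 7.21 and 7.13, and 6.91 and 6.81, in MM1.S. HDAC9 was lower in NCI-H929 on every array, by −1.22 ± 0.11 and −0.84 ± 0.11 (limma, adjusted p = 0.000134 and 0.000783). HDAC8 was lower with scramble (−0.65 ± 0.115, adjusted p = 0.00315) and had −0.135 with shSIRT6. HDAC6, the cytoplasmic tubulin deacetylase, had 5.96 and 6.05, and 6.09 and 6.28, in NCI-H929, against 6.48 and 6.35, and 6.34 and 6.46, in MM1.S. HDAC6 was lower with shSIRT6 (−0.41 ± 0.11, adjusted p = 0.0235), a call that 3 single arrays ended (−0.455 to −0.345), and had −0.215 with scramble. HDAC5 was higher with scramble (0.465 ± 0.15, adjusted p = 0.0438), a call lost in 10 of 16 alternatives, with 0.41 to 0.52 without single arrays. HDAC4, HDAC7, HDAC10 and HDAC11 were not called.

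The other SET proteins have substrates outside histones or substrates that are not settled. Of the 4 tested, 2 were called in both comparisons, 1 higher and 1 lower, beside 14.5% and 14.3% of all genes. SETD3, which methylates a histidine of actin, had 8.02 and 8.13, and 8.25 and 8.15, in NCI-H929, against 6.96 and 6.86, and 7.23 and 7.15, in MM1.S. It was higher in NCI-H929 by 1.165 ± 0.10 and 1.01 ± 0.10 (limma, adjusted p = 0.000109 and 0.000216). SETD5 was lower by −0.57 ± 0.090 and −0.39 ± 0.090, the second lost without scramble replicate 1 of MM1.S (−0.385) or 2 of NCI-H929 (−0.355). SETD6, which methylates the NF-kB subunit RELA, was higher with scramble (0.62 ± 0.11) and had 0.21 with shSIRT6. SETD9 had −0.13 and −0.30 and was called with scramble only, a call lost in 9 of 16 alternatives, with −0.345 to −0.255 without single arrays.

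Partners of these enzymes were counted in the same fit, where 37.9% of all genes were called with shSIRT6 and 38.3% with scramble. Of 8 tested partners of EZH2 in Polycomb complex 2, 0 were higher and 3 lower in NCI-H929 with shSIRT6, and 1 was higher and 3 lower with scramble. The core subunit SUZ12 was at −0.39 ± 0.092 and −0.425 ± 0.092 and the histone-binding RBBP7 at −0.665 ± 0.099 and −0.375 ± 0.099, the same direction as EZH2, while PHF19 was higher with scramble (0.61 ± 0.13). Of 11 partners in COMPASS complexes of the H3K4 writers, 1 was higher and 4 lower with shSIRT6, and 1 higher and 2 lower with scramble. CXXC1, which targets the SETD1 enzymes to CpG islands, was higher (0.795 ± 0.115 and 1.215 ± 0.115), and PAXIP1, found with KMT2C and KMT2D, was lower (−1.295 ± 0.12 and −0.89 ± 0.12).

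Partners of the HDACs and of the acetyltransferases are read against the same shares of all genes, 37.9% and 38.3%. Of 16 HDAC partners tested, 4 were higher and 7 lower with shSIRT6, and 5 higher and 5 lower with scramble. TBL1XR1, a subunit of the NCoR complex of HDAC3, was lower by −1.64 ± 0.10 and −1.805 ± 0.10, and RCOR3 of the CoREST family by −1.22 ± 0.11 and −1.095 ± 0.11 (limma, adjusted p from 1.4e-05 to 0.000201). RCOR1, the CoREST protein that binds KDM1A, was higher, as KDM1A was (0.73 and 1.06). Of 23 acetyltransferase partners, 4 were higher and 6 lower with shSIRT6, and 5 higher and 6 lower with scramble. EP400 (0.67 and 1.29) and MRGBP (0.965 and 1.525), subunits of the complex of KAT5, were higher and YEATS2, of the ATAC complex of KAT14, lower (−1.065 and −0.945).

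With shSIRT6, no member was called against scramble in either line, in their mean or in the difference between lines. In NCI-H929 0 of 59 were called (limma), as were 0.0236% of all genes. At an unadjusted p below 0.05 there were 11 members, 1 above 0 and 10 below, beside 14.5%, 4.74% and 9.75% of all genes. In MM1.S 0 of 59 were called, as were 1.33% of all genes, and 12 had an unadjusted p below 0.05, 2 above 0 and 10 below, beside 19.6%, 8.25% and 11.3% of all genes. Under a variance that may vary with level, limma called 2 members in NCI-H929 and 5 in MM1.S, beside 1.52% and 7.48% of all genes. The replicate block, which fits replicate numbers within each line, gave 0 and 0, and also 0 of all 12734 genes in each line.

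In NCI-H929 the 3 lowest p values belonged to writers. An unadjusted p below 0.05 (limma) was reached by 19.2% of writers and 13.8% of erasers, beside 14.5% of all genes. KAT2B had 8.05 and 7.92 with shSIRT6 against 8.44 and 8.37 with scramble, a difference of −0.42 ± 0.095 (limma, adjusted p = 0.196). SUV39H2, a writer of H3K9 methylation, had 6.95 and 6.79 against 7.32 and 7.36 (−0.47 ± 0.097, adjusted p = 0.186). KAT8 had 5.80 and 5.87 against 6.20 and 6.28 (−0.405 ± 0.092, adjusted p = 0.196). In each of the 3 both shSIRT6 arrays lie below both scramble arrays. SETD6 had 6.51 and 6.37 against 6.82 and 6.86, a difference of −0.40 ± 0.11 (adjusted p = 0.238). With the level-dependent variance KAT2B and SUV39H2 were called (adjusted p = 0.0147 and 0.0271).

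Small negative values were common in NCI-H929. Of the 59 members, 44 had a difference below 0, with a median of −0.11, beside 58.1% of all genes and their median of −0.045. By class 14 of 17 methyl writers, 12 of 18 methyl erasers, 7 of 9 acetyl writers and 8 of 11 acetyl erasers were below 0. Normalization moved this: after quantile normalization 32 members were below 0 with a median of −0.02, and after cyclic loess 34 with a median of −0.03. The shares of all genes below 0 after these steps are not given here. Whether the members still differed from all genes cannot be read from these counts.

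**Figure D3:**
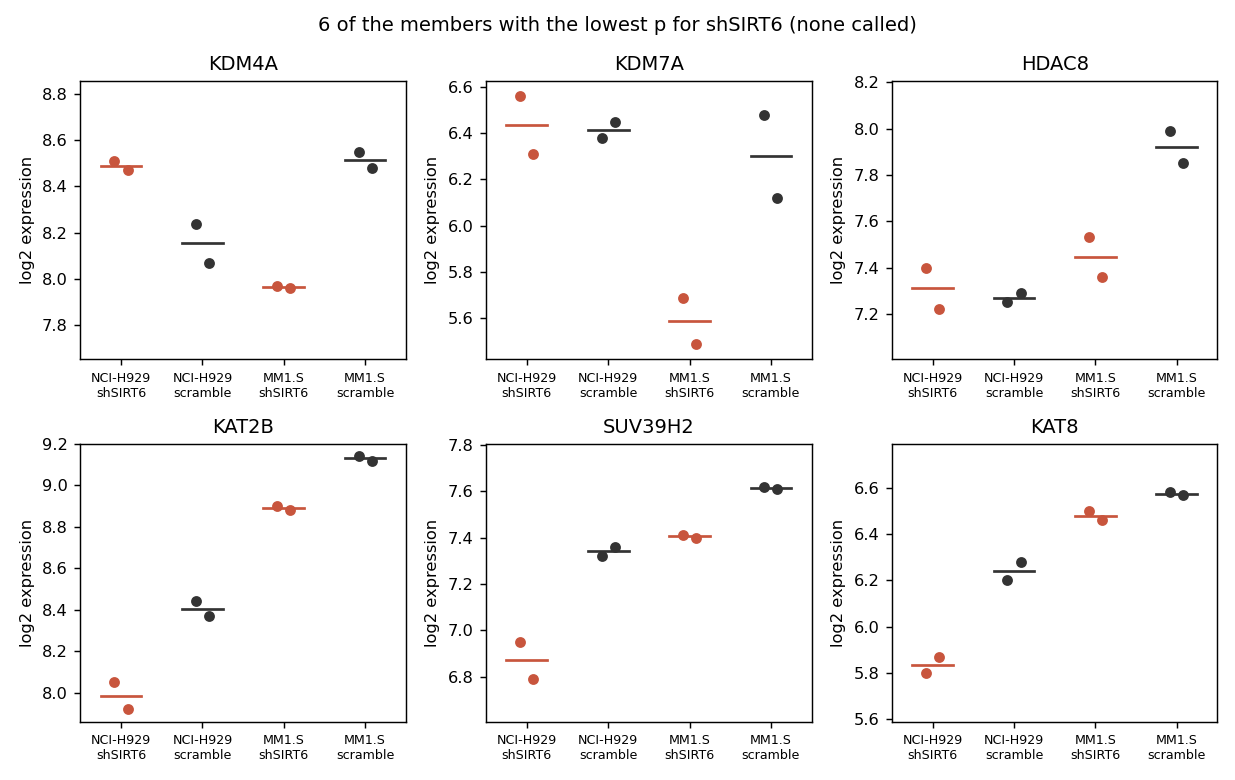
Log2 levels on each of the 8 arrays for 6 members with low p values for shSIRT6. Points are arrays, lines are means of 2 arrays, red is shSIRT6 and black is scramble, and the vertical axes differ. KDM4A is above scramble with shSIRT6 in NCI-H929 and below it in MM1.S, while KAT2B, SUV39H2 and KAT8 are below it in both lines.

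In MM1.S the lowest p values belonged to erasers. An unadjusted p below 0.05 (limma) was reached by 24.1% of erasers and 15.4% of writers, beside 19.6% of all genes. KDM4A, which removes H3K9 and H3K36 trimethylation, had 7.97 and 7.96 with shSIRT6 against 8.55 and 8.48 with scramble. The difference of −0.55 ± 0.10 missed the threshold narrowly (limma, adjusted p = 0.0524). KDM7A had 5.69 and 5.49 against 6.48 and 6.12, a difference of −0.71 ± 0.15 (adjusted p = 0.0736), and the shSIRT6 arrays lie below both scramble arrays. HDAC8 had 7.53 and 7.36 against 7.99 and 7.85 (−0.475 ± 0.115, adjusted p = 0.0912). KDM5B had 5.19 and 4.97 against 5.61 and 5.48 (−0.465 ± 0.11, adjusted p = 0.0931). KDM4A was called with the stricter filter (adjusted p = 0.0338). With the level-dependent variance KDM4A, KDM7A, HDAC8, KDM5B and, above 0, KAT2A (0.37) were called, with adjusted p from 0.000889 to 0.028.

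Of 18 demethylases, 13 had a negative and 5 a positive difference in MM1.S, and 0 were called. The 18 differences had a median of −0.12, beside 48.8% of all genes below 0 and their median of 0.005. An unadjusted p below 0.05 was reached by 5 of them, all below 0 (KDM4A, KDM4C, KDM5A, KDM5B and KDM7A), where 11.3% of all genes were below 0 with such a p. The median ran from −0.175 without shSIRT6 replicate 1 to −0.0625 without shSIRT6 replicate 2 of MM1.S, and was −0.0675 without scramble replicate 2. The methyl writers had a median of 0.02 in MM1.S, the acetyl writers 0.085 and the acetyl erasers −0.02. HDAC9 (0.31 ± 0.11, adjusted p = 0.187) and KAT2A (0.37 ± 0.10, adjusted p = 0.126) had the largest positive values.

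Averaged over both lines, KAT2B and SUV39H2 had the lowest p of the members, at −0.33 ± 0.067 and −0.34 ± 0.069 (limma, adjusted p = 0.0788 for both). KAT8 had −0.25 ± 0.065 (adjusted p = 0.111) and KDM3A −0.23 ± 0.065 (adjusted p = 0.125). Of the 59, 0 were called, beside 0.0864% of all genes. In 11 members, among them EZH2, NSD3, KDM1B and KAT7, both shSIRT6 arrays were below both scramble arrays in both lines, beside 10.5% of all genes. In 0 members were they above in both lines, beside 4.99% of all genes. Array medians were higher with shSIRT6 in both lines, and these counts were not redone after other normalizations. EZH2 averaged −0.17 ± 0.068 (adjusted p = 0.215). EP300 and CREBBP, the paired acetyltransferases, averaged 0.02 and 0.00.

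The shSIRT6 differences in the 2 lines, which share no array, were set side by side. They had the same sign in 27 of 59 members and in 56.1% of all genes. Pearson r was −0.18 across members and 0.163 across all genes. The rank correlation was −0.083 across members, weaker than r, and 0.191 across all genes. In the test of the difference between lines 0 members were called, beside 0.204% of all genes, and KDM4A had the lowest p. In 7 members the arrays did not overlap in either line but in opposite directions, beside 9.05% of all genes. KDM4A had 8.51 and 8.47 with shSIRT6 against 8.24 and 8.07 with scramble in NCI-H929 (0.335 ± 0.10, adjusted p = 0.248), the opposite direction to MM1.S. The hairpin effect in NCI-H929 minus that in MM1.S was 0.885 ± 0.14 and did not pass (limma, adjusted p = 0.0756). With the level-dependent variance it was called (adjusted p = 0.000726), and leaving out single arrays gave 0.80 to 0.97.

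The same 8 KDM4A values give the reversed line difference: NCI-H929 was higher than MM1.S by 0.525 ± 0.10 with shSIRT6 (limma, adjusted p = 0.00457) and lower by −0.36 ± 0.10 with scramble (adjusted p = 0.0239). The scramble call of KDM4A ended without scramble replicate 1 (−0.325) or 2 (−0.395) of MM1.S or replicate 2 of NCI-H929 (−0.275), and when only scramble arrays were fitted (adjusted p = 0.0537). KDM7A (0.73 ± 0.22), KDM5B (0.545 ± 0.16) and HDAC8 (0.515 ± 0.16) followed KDM4A in p, each near 0 in NCI-H929 (0.02, 0.08 and 0.04) and below 0 in MM1.S, with adjusted p from 0.234 to 0.252.

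**Figure D4:**
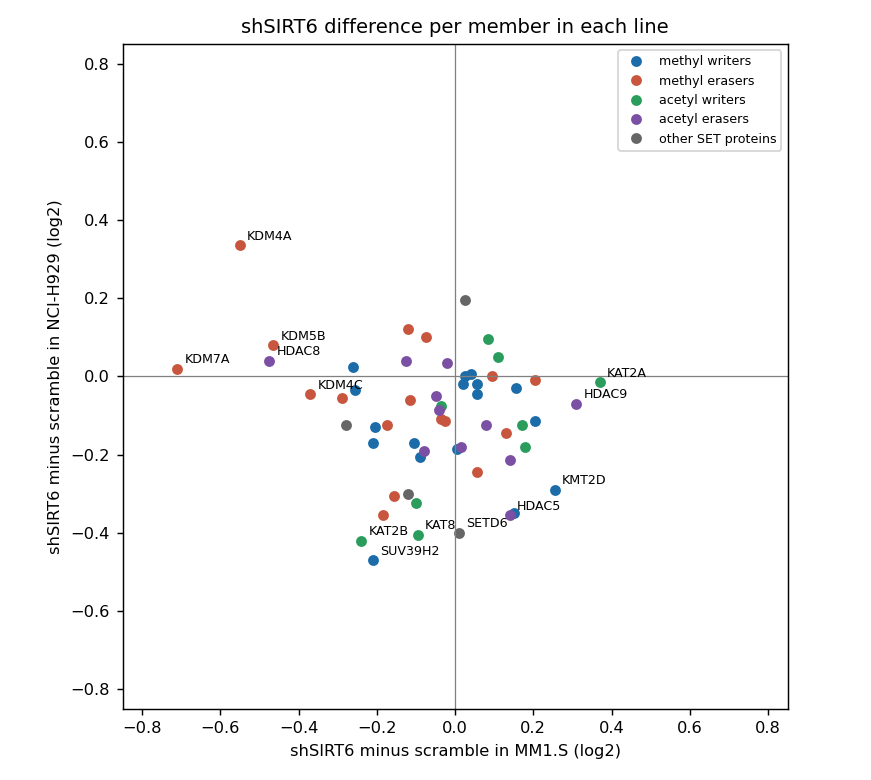
Log2 difference of shSIRT6 minus scramble in NCI-H929 (vertical) against that in MM1.S (horizontal) for 58 members, coloured by class. Points spread over all 4 quadrants (r = −0.18 and rank correlation −0.083 over 59 members). KDM4A lies alone at the upper left edge and KAT2B and SUV39H2 at the lower edge.

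Partners of the enzymes were not called with shSIRT6 either. Of 8 Polycomb, 11 COMPASS, 16 HDAC and 23 acetyltransferase partners, 0 passed in NCI-H929 and 0 in MM1.S (limma). At an unadjusted p below 0.05 there were 0, 1, 3 and 1 in NCI-H929 and 2, 2, 2 and 3 in MM1.S, beside 14.5% and 19.6% of all genes.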

How the data were processed

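Total RNA was hybridised to Human Gene 2.0 ST arrays. The authors deposited log2 values, 1 row per transcript cluster, made with RMA and the Transcriptome Analysis Console on hg19, per the submitters' processing notes. Of software releases and scan times nothing is given in the sources used here, and no scanner intensities were used, so no row could be judged against its background. Of 48226 rows, 16098 carry 1 gene symbol in the platform annotation, 0 carry several and 32128 are unnamed here. All 60 member symbols equal the current RefSeq symbol. Only KAT was read as needing a digit after it.

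For each gene the row with the highest mean was kept, and genes above the 30th percentile of rows (log2 level 3.045) were tested. The 4 group means were fitted with limma 3.58.1 under R 4.3.3 (4 residual and 3.43 prior degrees of freedom, prior SD 0.128). For 2 arrays against 2, the smallest two-sided p of an exact permutation test is 0.333. The number of arrays limits precision. The fitting code was tested on simulated data.

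Members, roles, partner lists and the rule for named genes were chosen with earlier results of these data known. The named genes are SIRT6, NSD2, any member, the 4 members with the lowest p of each hairpin comparison, the largest called line differences, a fixed set of well-known enzymes and up to 3 called partners per list and comparison. RCOR1 was named after its values were seen. HDAC2, HDAC4, NSD3 and SUV39H1 have 2 rows each. Replicate numbers did not pair the arrays (correlation of deviations 0.077 in MM1.S and −0.0011 in NCI-H929).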

Additional observations from a re-analysis of the deposited data

Results flagged for a closer look

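In 7 members both shSIRT6 arrays lay on one side of both scramble arrays in NCI-H929 and on the other side in MM1.S, as did 9.05% of all genes tested. None of these differences between the lines passed limma's interaction test over all genes. KDM4A, above scramble in NCI-H929 and below it in MM1.S, had a difference of 0.885 ± 0.14 (SE; adjusted p = 0.0756). The other 6 were below scramble in NCI-H929 and above it in MM1.S. Among the writers, KMT2D had −0.545 ± 0.18 (adjusted p = 0.262), CREBBP −0.36 ± 0.15 (adjusted p = 0.357) and EP300 −0.295 ± 0.14 (adjusted p = 0.392). Among the erasers, HDAC5 had −0.495 ± 0.21 (adjusted p = 0.363), HDAC7 −0.355 ± 0.15 (adjusted p = 0.364) and KDM2A −0.275 ± 0.14 (adjusted p = 0.442). Groups of 2 arrays cannot show an outlying array.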

How the results depend on the processing

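The counts of members called between the lines stayed within 1.5 times of 30 (shSIRT6) and 28 (scramble) in the alternatives run, except without scramble replicate 1 of MM1.S, where 17 were called with scramble. Leaving out single arrays gave 23 to 28 with shSIRT6 and 17 to 28 with scramble. The replicate block gave 27 and 26, beside 35.4% and 36% of all genes, and 0 for each hairpin comparison. For shSIRT6 against scramble, the variance trend on level called 2 members in NCI-H929 and 5 in MM1.S, beside 1.52% and 7.48% of all genes. It called 4 for the mean and 1 for the difference between lines, beside 7.15% and 3.38% of all genes. The stricter filter gave 1 in MM1.S, beside 3.05% of all genes. All other alternatives with 2 arrays per group gave 0, where at most 1.33% of all genes were called. In the replicate block and in fits on 1 line alone, 0 of all 12734 genes were called for shSIRT6. A 0 for the members is therefore no result about them there. Of the 73 gene and comparison results recomputed in the alternatives (called line differences and the hairpin differences with the lowest p), 0 changed sign. Other named values near 0 were not followed gene by gene, and in NCI-H929 the number of members below 0 moved from 44 to 32 with quantile normalization. Calls held in every alternative for 22 of 29 line differences with shSIRT6 and 17 of 28 with scramble, KDM5D left out. The most fragile, lost in 10 of 16 alternatives each, were SETD7 with shSIRT6 and HDAC5 with scramble. With 2 arrays per group, line differences near 0.4 log2 were close to the threshold. Larger hairpin differences, such as −0.71 for KDM7A and −0.55 for KDM4A in MM1.S, were not called in the main fit.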
